A study of Mus musculus with 18 samples.

Results

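Skeletal muscle genes were followed on 18 arrays of mouse thyroid RNA. The 40 genes are structural and metabolic genes of muscle fibres, chosen by name: 13 belong to fast-twitch fibres, 9 to slow-twitch fibres, 2 code for developmental myosins and 16 are shared by fibre types. Every probe whose accession maps to one of them was taken, 70 probes in all, and the brightest probe stood for each gene. All 40 genes passed the filter on dim probes and so stand among 17924 genes tested.

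A skeletal muscle fibre is packed with sarcomeres, in which myosin thick filaments pull on actin thin filaments when calcium binds troponin. Fast and slow fibres use different genes for nearly every sarcomere part, so each fibre type has its own myosin heavy chain, light chains, troponin subunits and calcium-handling proteins. The thyroid is an endocrine gland built of follicular epithelium, capillaries and stroma; it lies on the trachea beneath the strap muscles of the neck, and follicles themselves hold no striated fibres. Several tropomyosin genes are also used outside striated muscle, Tpm3 most widely.

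The mice were C57BL/6, 1 month old, and of 2 genotypes, wild type (WT) and Glis3KO2 (KO2), the latter carrying a targeted allele of Glis3, encoding a zinc finger transcription factor. On a normal diet there were 5 WT and 5 KO2 thyroids, and after 6 days of a low-iodine diet 4 WT and 4 KO2 thyroids, with 1 array each. The sources used here state neither the animals' sex nor which stretch of Glis3 was removed, and they name no promoter-driven Cre. The labels do not say that each array is a separate animal, so p-values measure the spread between these arrays, which may in part be technical. In whole-gland RNA, fewer cells of a type and less RNA per cell cannot be told apart.

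The share of spots well above background ranged from 60.1% to 90.6% over the arrays and median signals from 45.0 to 191.5; the number of arrays limits every value. Slides 1, 2 and 3 held the 10 normal-diet arrays and were read on one scanner model, whereas slides 4 and 5 held the 8 low-iodine arrays and were read on another, so the diets cannot be told apart from the array sets. The mean level of 7 follicular genes lay between 2.74 and 4.04 on every array. Glis3 itself, read by a probe whose place relative to the deletion is unknown, did not pass the test between genotypes on the normal diet (0.44 ± 0.42 SE, limma adjusted p = 0.751) or on low iodine (−1.37 ± 0.47 SE, adjusted p = 0.0596), so it does not check the genotype labels.

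A level below is log2 of the processed signal minus the array's 75th percentile of that quantity, so that 0 is the signal at that percentile and a step of 1 is a doubling. Levels of different probes are not compared with each other.

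The regions around the transcription starts of 5 members are shown because the genes they drive behaved differently on these arrays: Ckm, Mylpf, Myh4 and Des moved with the other muscle genes from array to array, and Tnnt1 followed them less closely. Each sequence is the RefSeq promoter window of build GRCm38.p6, 250 bases before the start to 50 after, read 5′ to 3′ on the gene's strand. Capitals mark the E-box CAGCTG, the letters bound by MyoD-family factors. They also mark the MEF2 core, CTA and TAG with any 4 bases between them, a looser pattern than that bound by MEF2 factors. TATAAA or, for a match on the other strand, TTTATA is marked as well. Both strands were searched; the first pair of patterns read the same on either strand, and in the windows shown no matches overlapped.

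Ckm: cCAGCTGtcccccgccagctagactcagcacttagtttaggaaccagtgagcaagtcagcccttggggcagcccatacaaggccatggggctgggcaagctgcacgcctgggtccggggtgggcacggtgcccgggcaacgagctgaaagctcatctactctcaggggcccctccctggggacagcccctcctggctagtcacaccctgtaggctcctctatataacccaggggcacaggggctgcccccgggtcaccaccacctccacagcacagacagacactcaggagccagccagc
Mylpf: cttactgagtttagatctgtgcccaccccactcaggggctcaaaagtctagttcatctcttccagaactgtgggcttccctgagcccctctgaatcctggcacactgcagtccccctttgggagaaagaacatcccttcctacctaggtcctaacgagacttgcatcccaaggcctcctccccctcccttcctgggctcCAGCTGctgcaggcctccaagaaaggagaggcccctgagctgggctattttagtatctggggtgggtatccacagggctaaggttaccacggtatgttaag
Myh4: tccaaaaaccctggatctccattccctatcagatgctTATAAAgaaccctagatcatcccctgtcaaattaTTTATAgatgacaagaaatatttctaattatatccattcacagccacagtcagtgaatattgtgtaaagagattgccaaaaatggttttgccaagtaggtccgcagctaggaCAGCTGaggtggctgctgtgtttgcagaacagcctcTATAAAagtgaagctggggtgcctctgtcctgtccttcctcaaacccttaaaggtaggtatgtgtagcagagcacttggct
Des: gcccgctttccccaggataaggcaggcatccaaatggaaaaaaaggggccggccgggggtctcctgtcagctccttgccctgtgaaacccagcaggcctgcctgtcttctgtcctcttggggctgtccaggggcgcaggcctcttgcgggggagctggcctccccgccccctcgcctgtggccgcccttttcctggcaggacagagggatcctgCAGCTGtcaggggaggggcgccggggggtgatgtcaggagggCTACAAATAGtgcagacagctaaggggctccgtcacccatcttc
Tnnt1: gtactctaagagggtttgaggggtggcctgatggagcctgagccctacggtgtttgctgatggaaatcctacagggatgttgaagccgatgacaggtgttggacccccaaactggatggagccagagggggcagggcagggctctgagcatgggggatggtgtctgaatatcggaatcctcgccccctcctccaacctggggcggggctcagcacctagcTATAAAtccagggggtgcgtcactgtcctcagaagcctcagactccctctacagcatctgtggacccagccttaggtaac

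Ckm (chr7:19410844-19411143, plus strand) codes for muscle creatine kinase and Mylpf (chr7:127211358-127211657, plus strand) for the fast regulatory myosin light chain; each window held 1 E-box. The Myh4 window (chr11:67237562-67237861, plus strand) held 1 E-box and 3 TATAAA matches, 1 of them on the other strand. The window of Des (chr1:75360042-75360341, plus strand), the gene of the intermediate filament desmin, held 1 E-box and 1 MEF2 core. In Tnnt1 (chr7:4515926-4516225, minus strand), the slow troponin T gene, the window held 1 TATAAA and neither of the others. The table had windows for 34 of the 40 genes, and lacked Tcap, Myot, Tnnt3, Tnni2, Neb and Actn3. CAGCTG was present in 18 of the 34 (52.9%) against 18.3% of 27025 genes with windows of the same length, the MEF2 core in 2 (5.88%, Des and Ttn) against 4.23%, and TATAAA in 9 (26.5%) against 15.7%. The windows shown do not stand for all members. Of the 34, 24 followed the other members with Pearson's r above 0.8, as described below, and 10 did not. CAGCTG was present in 14 of the 24 and in 4 of the 10. TATAAA was present in 6 of the 24 and 3 of the 10, and the MEF2 core in 2 of the 24 and 0 of the 10. Whether these shares differ was not tested. A match describes letters only.

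Arrays of the same group differed widely in muscle signal, and this was the main feature of these genes. The mean level of the 40 genes ran from −3.12 to 1.56 over the 5 WT arrays on the normal diet. Over the 5 KO2 arrays there it ran from −3.65 to 2.68. These are a 25.5-fold and an 80.1-fold range between arrays of the same group. On the lowest array, KO2 replicate 3, Myh4 was not well above background, so the 80.1-fold range rests in part on dim values. On low iodine the range was 10.6-fold in WT and 7.52-fold in KO2. In replicate order the means were −2.92, 1.56, −0.56, −3.12 and −1.63 in WT and 1.88, 1.61, −3.65, 2.68 and −0.73 in KO2 on the normal diet. On low iodine they were −1.06, 0.38, 1.19 and −2.22 in WT and −2.31, 0.60, −1.96 and −2.23 in KO2. High arrays (WT replicate 2 and KO2 replicates 1, 2 and 4 on the normal diet; WT replicate 3 and KO2 replicate 2 on low iodine) were thus found in every group, and the ranges of the genotypes overlapped on both diets.

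As a share of all signal on an array, the 40 brightest probes took 0.0305%, 0.515%, 0.102%, 0.0322% and 0.0526% in WT replicates 1 to 5 on the normal diet, and 0.638%, 0.434%, 0.0295%, 1.22% and 0.106% in KO2 replicates 1 to 5. The low-iodine shares were 0.119%, 0.218%, 0.457% and 0.110% in WT and 0.0796%, 0.295%, 0.0795% and 0.0776% in KO2. KO2 replicate 4 on the normal diet, with the highest share, was also the array with the fewest spots well above background (60.1%) and the lowest median signal (45.0); the part of that array's quality in its values was not tested.

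**Figure D1:**
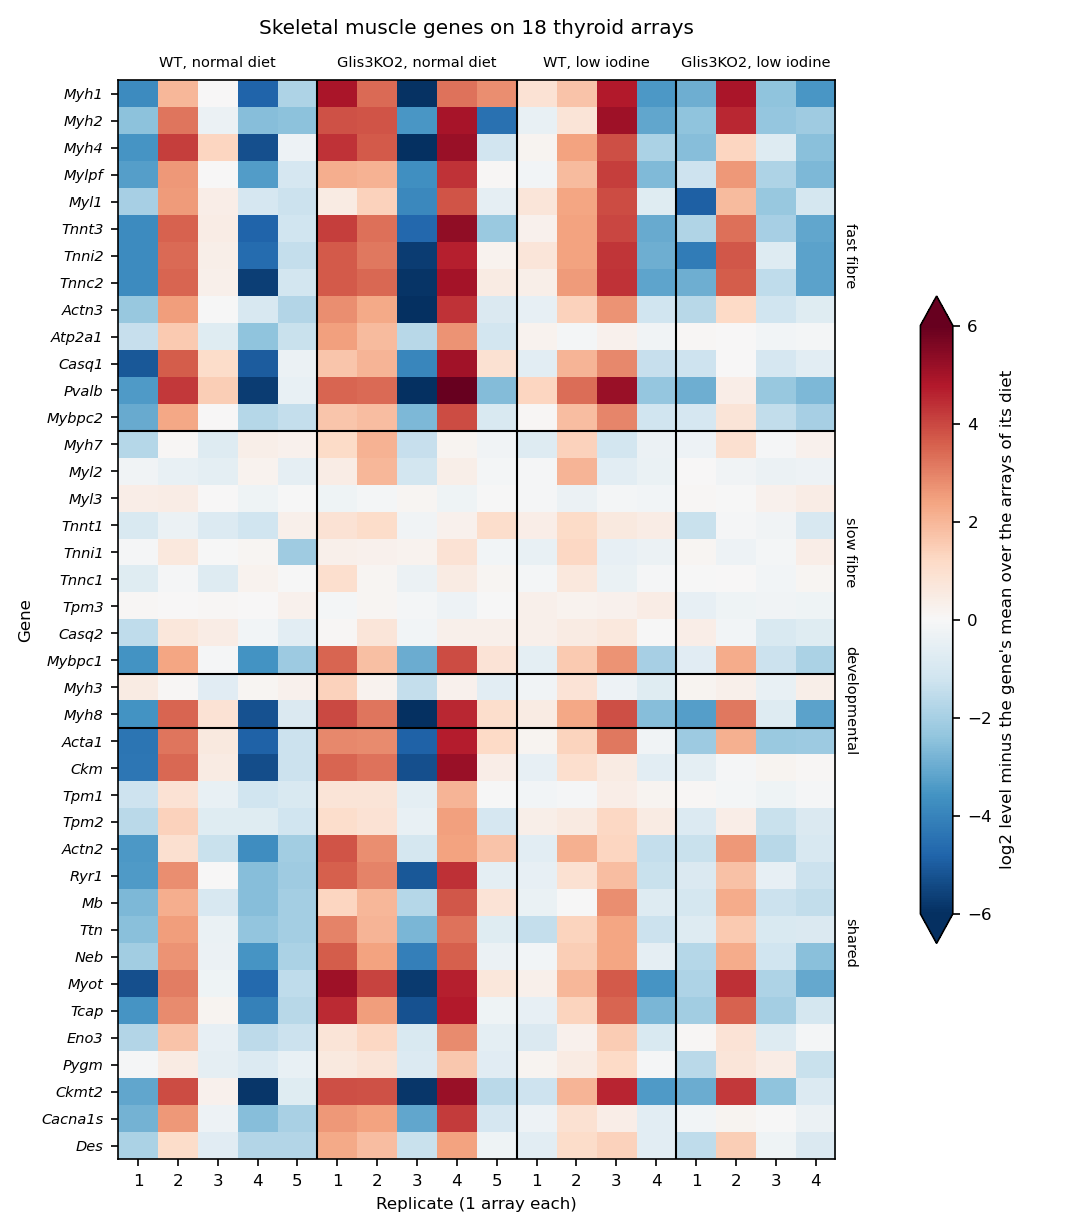
Level of each of the 40 genes (rows, grouped by role) on each of the 18 arrays (columns, by group and replicate), as the log2 level minus the gene's mean over the arrays of its diet; colours are cut at −6 and 6. Fast and shared genes form whole columns of high (WT replicate 2, KO2 replicate 4) or low (KO2 replicate 3) values, while slow fibre genes other than Mybpc1 stay pale.

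The heat map shows that the same arrays were high or low for most of the genes. WT replicate 2 held the highest value of its group for 34 of the 40 genes and for 13 of 13 fast fibre genes. In the KO2 group on the normal diet, replicate 4 was highest for 28 genes (12 of the fast ones) and replicate 3 lowest for 35. On low iodine, WT replicate 3 was highest for 29 genes and WT replicate 4 lowest for 29, and KO2 replicate 2 was highest for 30. Of the variance of the 40 genes within groups, 90.3% lay on the first principal component (87.1% to 91.7% over the alternative settings). The genes were not scaled to equal variance, so those with large SDs weighed most. In the lists of other tissues this share ran from 36.4% (heart) to 94.1% (parathyroid), with 84.8% in fat and 79.1% in thymic epithelium genes.

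Myosin heavy chains are the motors of the thick filament, and Myh4 spread most of all members. Myh4, the heavy chain of type IIb fibres, read −1.49, 6.19, 3.31, −3.22 and 1.72 on normal-diet WT arrays 1 to 5, against 6.36, 5.73, −6.32, 7.24 and 0.89 on KO2 arrays 1 to 5. Low-iodine Myh4 levels were 0.76, 3.05, 4.50 and −1.30 in WT and −1.93, 1.89, −0.15 and −1.89 in KO2. Its pooled SD within groups, 3.90, was the largest of all 17924 genes tested, and KO2 replicate 3 lay far below the other KO2 arrays of its diet, while replicate 4 was the highest. On that low array Myh4 was not well above background, so the exact SD rests on a dim value; it was well above background on the other 17.

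Myh1, the type IIx heavy chain, read −3.19, 2.60, 0.63, −4.21 and −1.25 in normal-diet WT and 5.52, 4.02, −5.34, 3.86 and 3.39 in normal-diet KO2. On low iodine Myh1 read −0.06, 0.83, 3.87 and −4.35 in WT and −3.84, 4.02, −3.30 and −4.40 in KO2, so that 1 KO2 array stood with the highest WT array and the other KO2 arrays lay low. Myh2, the type IIa heavy chain, read −3.13, 2.53, −1.05, −3.21 and −3.12 in WT and 3.13, 3.11, −4.17, 4.28 and −5.14 in KO2 on the normal diet. Here KO2 replicate 5 was the lowest array, although its Myh1 level was close to that of replicate 4. Low-iodine Myh2 levels were −2.42, −1.19, 3.09 and −5.11 in WT and −4.41, 2.55, −4.28 and −4.10 in KO2, with the same high arrays as for Myh1. These genes are close paralogs in 1 cluster, and a probe for one may read another.

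Myh8, the perinatal heavy chain, varied with the fast genes, at −0.41, 6.65, 4.06, −2.07 and 2.31 in WT and 7.15, 6.39, −4.21, 7.70 and 4.21 in KO2 on the normal diet. Low-iodine Myh8 levels were 1.55, 3.41, 4.92 and −1.47 in WT and −2.21, 4.22, 0.29 and −2.12 in KO2. The embryonic heavy chain Myh3 stayed low on the normal diet, at −5.94, −6.38, −7.11, −6.29 and −6.18 in WT and −5.06, −6.24, −7.87, −6.16 and −7.09 in KO2, and was well above background on 2 of 5 WT and 1 of 5 KO2 arrays there. On low iodine Myh3 read −1.40, −0.36, −1.51 and −1.91 in WT and −1.02, −0.87, −1.64 and −0.82 in KO2. KO2 replicate 3 on the normal diet and WT replicate 4 on low iodine were the lowest of their groups for Myh3 as for Myh8, but the highest arrays of the 2 genes differed in WT on both diets and in KO2 on both.

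Myh7, the heavy chain of slow and heart fibres, read −6.27, −4.45, −5.30, −4.18 and −4.30 in WT and −3.38, −2.44, −5.91, −4.36 and −4.75 in KO2 on the normal diet, and 4 of the WT and 3 of the KO2 arrays there were well above background. Low-iodine Myh7 levels were −4.10, −1.92, −4.42 and −3.65 in WT and −3.62, −2.37, −3.38 and −3.07 in KO2. Its highest arrays were KO2 replicate 2 on the normal diet and WT replicate 2 on low iodine, which for the fast heavy chains were not the highest of their groups. In normal-diet WT it was highest on replicate 4, the lowest array for Myh1, Myh2 and Myh4. In low-iodine KO2, however, replicate 2 was the highest for Myh7 as for these genes. In normal-diet KO2, replicate 3 was the lowest, as for Myh1 and Myh4.

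Light chains sit on the neck of the myosin head and tune its movement. Mylpf, the fast regulatory chain, read −1.65, 4.27, 1.68, −1.67 and 0.68 in WT and 3.84, 3.75, −2.02, 6.01 and 1.74 in KO2 on the normal diet. Low-iodine Mylpf levels were −0.28, 1.77, 4.03 and −2.79 in WT and −1.36, 2.47, −1.95 and −2.82 in KO2. The high arrays were those of the fast heavy chains. Myl2, its slow counterpart, read −6.08, −6.31, −6.46, −5.63 and −6.39 in WT and −5.40, −3.87, −6.98, −5.49 and −6.00 in KO2, and was well above background on 2 arrays of each group. On low iodine Myl2 read −3.00, −0.90, −3.58 and −3.34 in WT and −2.91, −3.14, −3.27 and −3.23 in KO2, and only WT replicate 2 stood apart. The fast essential chain Myl1 ran from −0.52 to 7.10 on normal-diet arrays and from −5.13 to 3.69 on low-iodine arrays. The slow essential chain Myl3 kept within −2.21 and −1.51 on the normal diet and within 1.57 and 2.40 on low iodine by its brightest probe.

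Troponin is the calcium switch of the thin filament. Its fast inhibitory subunit Tnni2 read −0.31, 6.85, 3.83, −1.13 and 2.05 in WT and 7.17, 6.64, −2.20, 8.14 and 3.70 in KO2 on the normal diet. Low-iodine Tnni2 levels were 1.16, 2.81, 4.68 and −2.54 in WT and −3.79, 4.14, −0.36 and −2.82 in KO2. The slow subunit Tnni1 read −4.11, −3.40, −4.06, −3.92 and −6.16 in WT and −3.71, −3.76, −3.81, −3.15 and −4.21 in KO2 on the normal diet. Apart from WT replicate 5, those Tnni1 values lay within a narrow band on the arrays over which Tnni2 ranged most. On low iodine Tnni1 read −3.26, −1.54, −3.31 and −3.16 in WT and −2.66, −3.12, −2.92 and −2.39 in KO2, with WT replicate 2 the highest.

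The fast calcium-binding subunit Tnnc2 read −0.78, 6.49, 3.32, −2.63 and 1.89 in WT and 6.67, 6.46, −2.87, 7.99 and 3.47 in KO2 on the normal diet. Low-iodine Tnnc2 levels were 0.93, 3.13, 4.93 and −2.58 in WT and −2.32, 4.23, −0.95 and −2.62 in KO2, an order of arrays close to that of Tnni2. Tnnc1, its slow and heart counterpart, read −5.72, −5.08, −5.78, −4.80 and −5.01 in WT and −4.00, −4.89, −5.34, −4.53 and −4.90 in KO2 on the normal diet. On low iodine Tnnc1 read −0.63, 0.11, −0.90 and −0.60 in WT and −0.54, −0.51, −0.66 and −0.41 in KO2. The genotypes overlapped for both genes on both diets.

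Tnnt3, the fast tropomyosin-binding subunit, read −3.28, 4.07, 0.95, −4.29 and −0.70 in WT and 4.66, 3.82, −4.19, 5.83 and −1.73 in KO2 on the normal diet. Low-iodine Tnnt3 levels were 1.45, 3.63, 5.19 and −1.84 in WT and −0.61, 4.50, −0.80 and −1.92 in KO2. Its slow counterpart Tnnt1 read −3.24, −2.68, −3.16, −3.53 and −2.01 in WT and −1.46, −1.23, −2.55, −2.08 and −1.27 in KO2 on the normal diet, where only KO2 replicates 3 and 4 fell among the WT values. On low iodine Tnnt1 read −1.84, −1.12, −1.67 and −1.83 in WT and −3.57, −2.32, −2.44 and −3.21 in KO2, and here every KO2 array lay below every WT array.

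Among shared genes, Acta1, the skeletal actin of thin filaments, read −1.96, 5.62, 2.98, −2.43 and 1.11 in WT and 5.30, 5.26, −2.46, 7.13 and 3.59 in KO2 on the normal diet. Low-iodine Acta1 levels were 0.87, 2.05, 3.88 and 0.48 in WT and −1.48, 2.85, −1.55 and −1.48 in KO2. Ckm read −4.14, 3.65, 0.72, −5.09 and −1.07 in WT and 3.70, 3.46, −5.07, 5.38 and 0.59 in KO2 on the normal diet. Both genes thus spanned the same arrays from bottom to top. Ckm stayed between −4.79 and −3.14 on all 8 low-iodine arrays, at −4.65, −3.14, −3.67 and −4.79 in WT and −4.78, −4.24, −4.00 and −4.09 in KO2, where Acta1 still ranged widely.

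Tropomyosin lies along the actin filament. Tpm1, used in fast fibres and in smooth muscle, read 2.15, 4.29, 2.99, 2.22 and 2.48 in WT and 4.21, 4.17, 2.81, 5.46 and 3.39 in KO2 on the normal diet. Low-iodine Tpm1 levels were 4.99, 5.05, 5.55 and 5.31 in WT and 5.18, 5.03, 4.87 and 5.07 in KO2, a flat series. Tpm3, used in slow fibres and in most other cells, read 4.49, 4.45, 4.50, 4.44 and 4.67 in WT and 4.28, 4.55, 4.28, 4.11 and 4.39 in KO2 on the normal diet. On low iodine Tpm3 read 3.54, 3.43, 3.52 and 3.70 in WT and 2.75, 2.96, 3.03 and 2.99 in KO2, with every KO2 array below every WT array. Its pooled SD of 0.13 was the smallest of the 40.

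Des read −2.27, 0.76, −1.04, −2.10 and −2.10 in WT and 1.92, 1.49, −1.72, 2.07 and −0.64 in KO2 on the normal diet. Low-iodine Des levels were −1.99, −0.24, 0.02 and −1.96 in WT and −2.89, 0.12, −1.61 and −2.22 in KO2. The calcium pump of the fast sarcoplasmic reticulum, Atp2a1, read −2.16, 0.82, −1.50, −3.17 and −2.10 in WT and 1.69, 1.15, −2.41, 1.92 and −1.86 in KO2 on the normal diet. On that diet both genes were highest on WT replicate 2 and KO2 replicate 4, as was Acta1. For Atp2a1 as for Acta1, WT replicate 3 came next below WT replicate 2 (−1.50 and 2.98). KO2 replicate 5 lay above only KO2 replicate 3 for each of them (−1.86 and 3.59). Low-iodine Atp2a1 levels were 2.29, 1.99, 2.35 and 1.88 in WT and 2.15, 2.13, 1.92 and 1.99 in KO2, which differ little. Casq2, the slow and heart calsequestrin that stores calcium, read −5.14, −2.94, −3.17, −3.75 and −4.25 in WT and −3.52, −2.89, −3.78, −3.32 and −3.28 in KO2 on the normal diet, and −2.73, −2.55, −2.41 and −3.04 in WT and −2.62, −3.22, −3.93 and −3.78 in KO2 on low iodine.

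The remaining members are given by their pooled SD within groups. It was 3.88 for Ckmt2 (mitochondrial creatine kinase), 3.87 for Pvalb (the calcium buffer parvalbumin), 3.69 for Myot and 3.20 for Tcap (Z-disc proteins), and 2.86 for Casq1 (the fast calsequestrin). The triad proteins Ryr1 (calcium release channel) and Cacna1s (voltage sensor) had 2.65 and 2.02, the giant filament proteins Neb and Ttn 2.45 and 2.07, and the Z-disc actinins Actn3 and Actn2 2.61 and 1.84. Mybpc1 and Mybpc2, slow and fast myosin-binding protein C, had 2.39 and 2.03. Mb (myoglobin) had 1.87, Eno3 (muscle enolase) 1.27, Tpm2 1.03 and Pygm (muscle glycogen phosphorylase) 0.87. Some of these fell to background on part of the arrays. Actn2, Casq1, Ckmt2, Mybpc1, Myot, Neb, Pvalb and Ryr1 were well above background on some but not all arrays of at least 1 group. Each was well above background on at least 1 array of every group. Over all groups, Myot was well above background on only 11 arrays, and Ckmt2 and Pvalb on 13 each. Their SDs of 3.69, 3.88 and 3.87 therefore rest in part on dim values, and their size is uncertain.

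**Figure D2:**
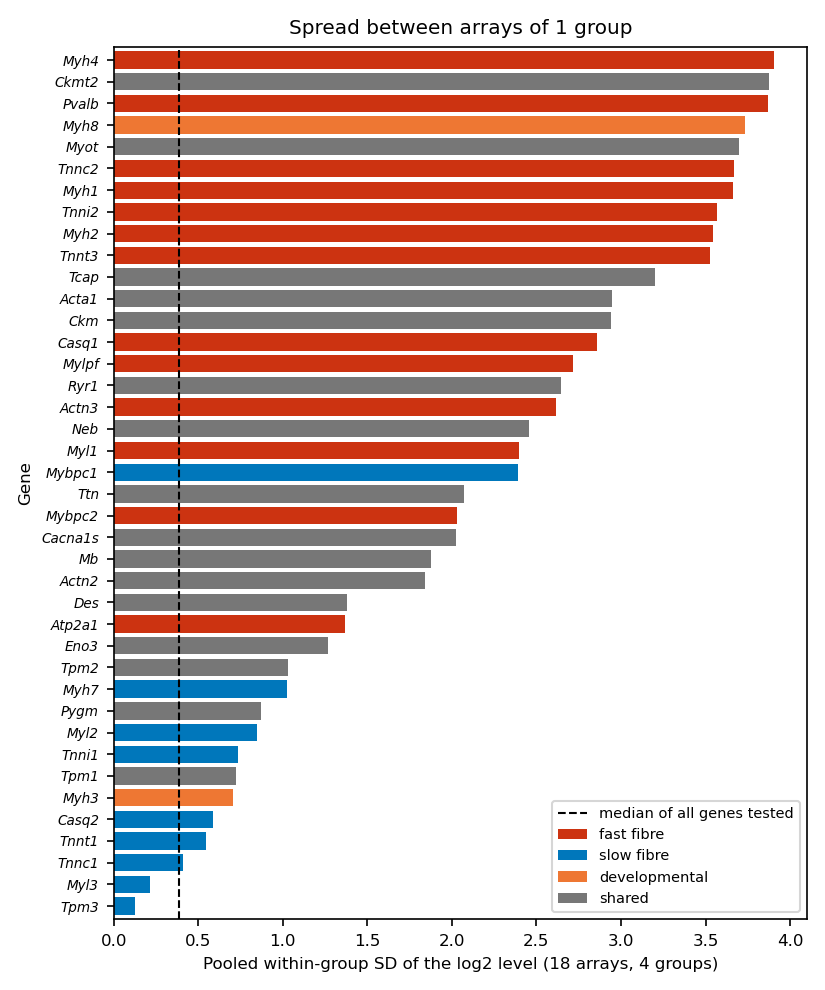
Pooled SD of the log2 level between arrays of the same group (horizontal axis, log2 units) for each of the 40 genes, coloured by role; the dashed line is the median of all genes tested. Fast fibre genes lie between 1.37 and 3.90, and slow fibre genes other than Mybpc1 at 1.03 or below.

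The bar plot of pooled SDs sets these spreads against the array's background. The median over the 40 genes was 2.23, and the median over all genes tested was 0.389. In the groups taken singly the members' median SD was 2.07 in normal-diet WT, 2.77 in normal-diet KO2, 1.57 in low-iodine WT and 1.26 in low-iodine KO2, against 0.323, 0.351, 0.320 and 0.320 over all genes. Single arrays carried part of this: without KO2 replicate 2 the low-iodine KO2 median was 0.445, without KO2 replicate 3 the normal-diet KO2 median was 1.64, and without WT replicate 2 the normal-diet WT median was 1.10. Of the 40 genes, 30 exceeded the 95th percentile of all genes and 25 the 99th. The median was 3.53 for fast fibre genes, 2.05 for shared genes and 0.589 for slow fibre genes.

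By the brightest probe of each gene, fast and slow fibre genes differed in how far they moved. The slow list holds Tpm3, used in most other cells, and Myl2, well above background on 4 of 10 normal-diet arrays. It also holds Myl3, whose brightest probe had a pooled SD of 0.22 and whose other probe had 1.89. The part of these in the difference was not tested. The mean level of the 13 fast genes was −0.12 ± 2.74 (SD, n = 5) in normal-diet WT and 1.78 ± 3.75 (SD, n = 5) in normal-diet KO2, with ranges of 103-fold and 638-fold between arrays. The 9 slow genes had −3.35 ± 0.48 and −2.62 ± 0.64 in the same groups, with ranges of 2.46-fold and 2.96-fold. On low iodine the fast mean was 0.18 ± 2.48 in WT and −1.71 ± 2.10 in KO2 (n = 4 each), with ranges of 56.7-fold and 22.1-fold, and the slow mean was −1.19 ± 0.54 and −1.53 ± 0.27, with ranges of 2.31-fold and 1.48-fold. The 16 shared genes followed the fast ones, at −1.09 ± 2.14, 1.06 ± 2.69, −0.59 ± 1.40 and −1.38 ± 1.44 in the same order of groups.

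**Figure D3:**
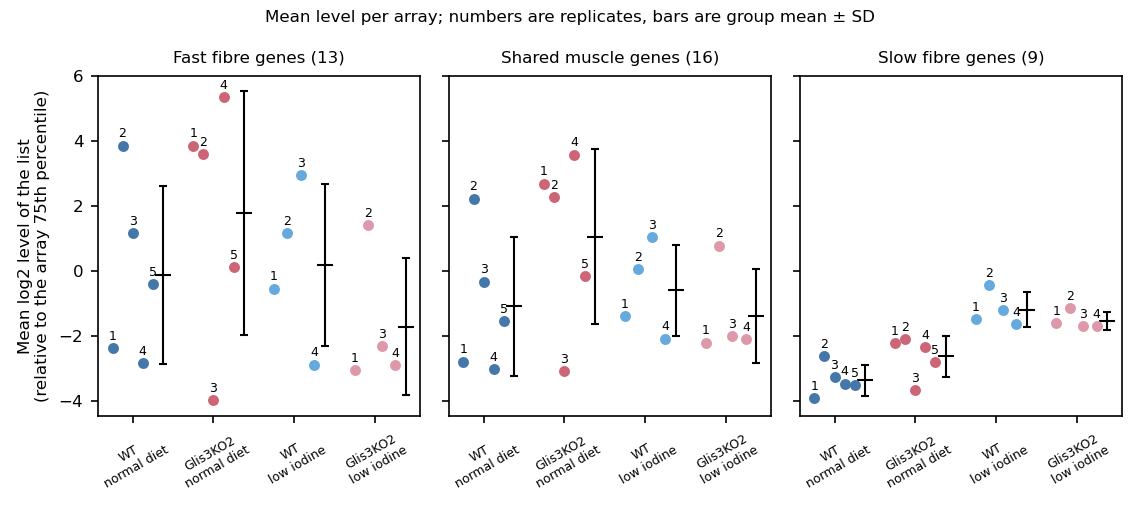
Mean level (log2 signal minus the array's 75th percentile) of the fast fibre (13), shared (16) and slow fibre (9) genes on each array; points are arrays labelled by replicate, and the bar beside each group is its mean ± SD. In the fast panel normal-diet KO2 arrays run from −3.98 to 5.34, and in the slow panel the arrays of any group lie within 2.96-fold.

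The difference between the fast and the slow mean, with each gene centred on its mean over the arrays of its diet, was −2.28, 2.64, 0.61, −3.20 and −0.71 in normal-diet WT and 2.25, 1.86, −4.14, 3.87 and −0.91 in normal-diet KO2. On low iodine it was 0.35, 1.01, 3.56 and −1.83 in WT and −2.04, 1.95, −1.21 and −1.79 in KO2. The plot of list means shows the same arrays at the top and bottom in the fast and shared panels. KO2 exceeded WT by 1.17 on the normal diet (0.35 to 2.35 over the alternatives) and lay below it by a difference of −1.55 on low iodine (−2.45 to −0.62), with the groups overlapping on both diets. No p-value is given for a score over these genes.

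How closely each gene followed the others was described by Pearson's r over 18 arrays, which share slides and the scaling rule. It was taken between the gene's deviations from the group means and the mean deviation of the other 39. This r exceeded 0.8 for 30 of the 40: 13 of 13 fast, 15 of 16 shared, 1 of 9 slow and 1 of 2 developmental genes. Tcap had the highest, 0.99. Spearman's rho over the same arrays ran from −0.20 for Myl3 to 0.99 for Tnnc2. Mybpc1 was the slow gene above 0.8, at 0.97, and Myh8 the developmental one, also at 0.97. The others were Pygm at 0.77, Casq2 at 0.53, Myh7 and Myh3 at 0.51, Tnnt1 at 0.49, Tnnc1 at 0.36, Myl2 at 0.35, Tnni1 at 0.22, Tpm3 at −0.16 and Myl3 at −0.19.

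Without the 2 arrays farthest from the median (normal-diet KO2 replicate 3 and WT replicate 2), 26 of the 40 exceeded 0.8. Within the normal diet 31 exceeded it and within low iodine 25, the 6 that differed being Atp2a1, Ckm, Tpm1, Tpm2, Pygm and Cacna1s. Of the 17884 other genes tested, 79 (0.442%) exceeded 0.8, and their median r was 0.06.

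Outside the list, the 15 genes most like it had r from 0.95 to 0.99, and 9 of them were on a list of 67 further muscle genes. The closest was Pgam2, the muscle phosphoglycerate mutase, at 0.99, followed at 0.98 by Smpx, Hrc, Xirp2 and Myoz1. Hrc binds calcium in the sarcoplasmic reticulum, and Xirp2 and Myoz1 are proteins of the sarcomere's attachment sites and Z-discs. Next came Tbx15, Nrap, Myo18b, Cmya5, Art1, Abra, Trdn, 2310002L09Rik, Cav3 and Ppp1r3a. Of the 65 further muscle genes tested, 28 exceeded 0.8. Of 11 muscle regulators tested, Myf6 alone did, at 0.87, while Myod1 had 0.23, Myog 0.41 and Pax7, the satellite cell factor, 0.32.

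No gene of the other tissue lists exceeded 0.8: 0 of 10 heart, 0 of 9 smooth muscle, 0 of 6 pericyte, 0 of 7 follicular, 0 of 8 fat, 0 of 7 thymic epithelium, 0 of 4 parathyroid, 0 of 6 airway, 0 of 5 cartilage, 0 of 6 fibroblast and 0 of 5 endothelium genes. The smooth muscle actin Acta2 came closest, at 0.78. Of these list means the parathyroid one followed the muscle mean most over 18 arrays, at 0.64, and thymic epithelium came next, at 0.47. Without the 2 farthest arrays they had 0.40 and 0.42, so that order then turned. The mean parathyroid level ran from 2.72 to 3.73 in normal-diet WT, −0.92 to 3.60 in normal-diet KO2, 2.40 to 2.91 in low-iodine WT and 0.26 to 3.02 in low-iodine KO2, and both minima were arrays low in muscle genes (KO2 replicate 3 and KO2 replicate 1). The part of other tissues in the muscle values was not tested.

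Probes of the same gene did not always vary alike. Of 70 probes, 47 had r above 0.8 with the other members, and 31 genes had at least 1 such probe. In the 18 genes with more than 1 probe, all probes exceeded 0.8 in 7, some in 7 and none in 4. For Myl3, probe A_51_P434910, the brightest, had r of −0.19 and an SD of 0.22, and A_51_P177210 had 0.92 and 1.89, so the slow gene with the lowest r would stand with the fast genes by its other probe. For Atp2a1, A_51_P244856 had 0.84 and A_52_P686130 had 0.95, with SDs of 1.37 and 4.49, and within low iodine 0.49 and 0.94.

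Tpm1 had 4 probes, with r of 0.96 (A_51_P325173), 0.81 (A_52_P532910, the brightest), −0.04 (A_52_P44949) and −0.43 (A_51_P378371). Myh8 was read by A_51_P143296 at 0.97 and by A_52_P224283 at 0.16, which was well above background on only 3 arrays and did not pass the filter. Which transcript form each probe reads is not given in the files. Myh7 had r of 0.51 and 0.48 by its 2 probes, and Tnni1 0.22 and 0.42, so these slow genes stayed under 0.8 by either probe.

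**Figure D4:**
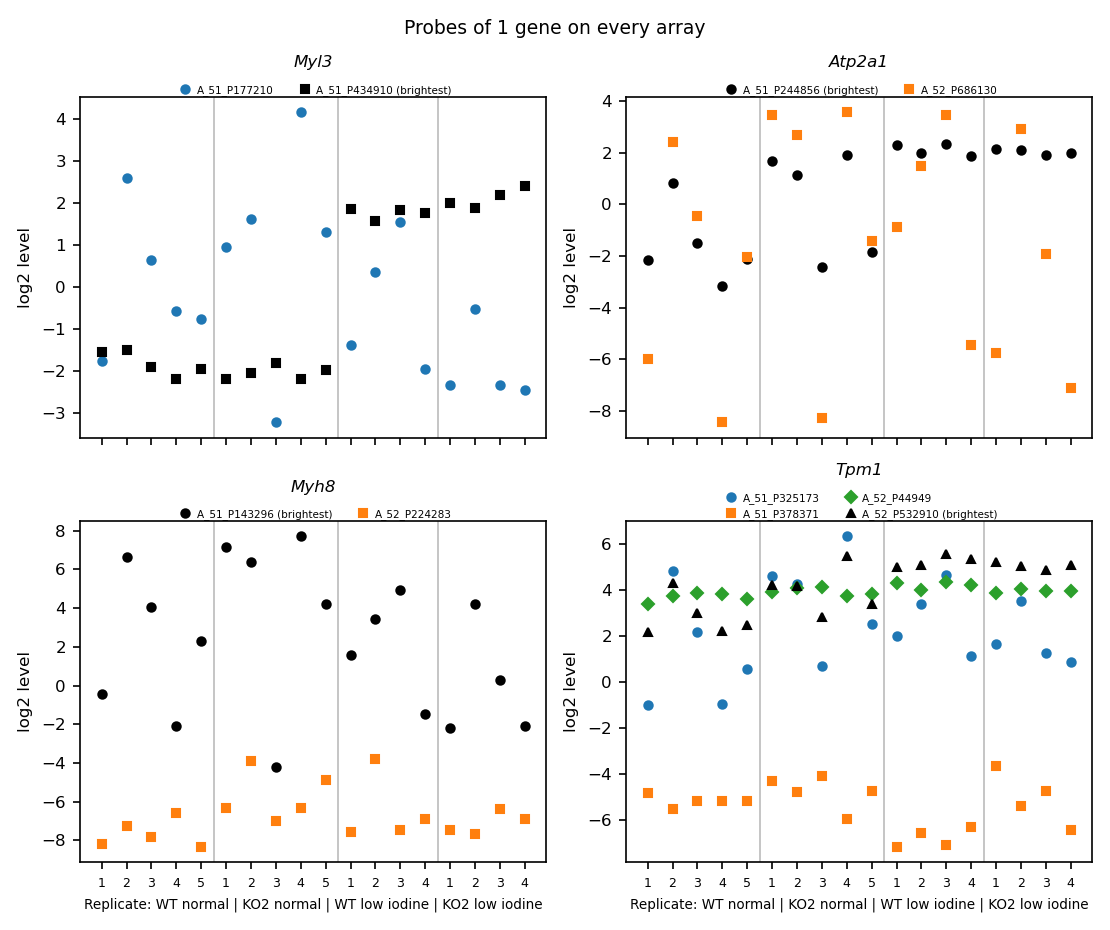
Log2 level of every probe of Myl3, Atp2a1, Myh8 and Tpm1 on each array (points, by group and replicate; grey lines divide the groups). In Myl3 and Tpm1 at least 1 probe stays flat within a group while another ranges with the muscle genes.

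Whether Glis3 loss changed muscle gene levels was asked on each diet with limma's test over all genes. On the normal diet, 37 of the 40 genes were higher in KO2 than in WT and 3 lower (Myl3, Tpm3 and Myh3), with a median difference of 1.87. None passed an adjusted p under 0.05, while 7 had an unadjusted p under 0.05 (Tnnt1, Actn2, Tpm1, Des, Mb, Atp2a1 and Tnnc1). Of all 17924 genes tested, 2325 had an unadjusted p under 0.05 and 1.37% passed the adjusted threshold. The median difference over all genes was 0.04. The arrays of the genotypes did not overlap for 0 of the 40 genes, against 3.49% of all genes.

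The largest difference was that of Actn2, which read −6.43, −2.01, −4.29, −6.67 and −5.06 in WT and 0.80, −0.18, −4.03, −0.54 and −1.23 in KO2. KO2 exceeded WT by 3.86 ± 1.08 (SE, limma adjusted p = 0.0930), and 4 of the 5 KO2 arrays lay above all WT arrays. Tnnt1 was higher by 1.21 ± 0.33 (SE, limma adjusted p = 0.0872, with 0.0217 to 0.257 over the alternatives, 4 of 29 of which called it). Of the 13 fast genes Atp2a1 alone had an unadjusted p under 0.05, at 1.72 ± 0.80 (SE), and Myh4 differed by 1.48 ± 2.27 and Tnni2 by 2.43 ± 2.08 (SE). The shared gene Acta1 differed by 2.70 ± 1.72 (SE).

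The size of the normal-diet difference moved with single arrays, while 36 to 38 of the 40 genes stayed higher with any 1 array left out. Without KO2 replicate 3 the median became 3.00, without KO2 replicate 4 it became 1.20, and without both, an alternative chosen after seeing the data, it was 2.31. It was 2.77 without WT replicate 2 and 0.85 with array weights, where 33 genes were higher and 7 lower. Within slides, the median of KO2 minus WT was 4.76 on slide 1 and 3.17 on slide 3, with 38 genes higher on each. It was −0.69 on slide 2, with 12 higher and 28 lower. Slide 1 held only 1 array of each genotype, and slides 2 and 3 held 2 of each.

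On the low-iodine diet the direction was the opposite: 35 of the 40 genes were lower in KO2 and 5 higher, with a median difference of −0.86. Tnnt1 and Tpm3 passed the test, both lower, so 2 of 40 were called, while 14.5% of all genes were called and 7.28% were called lower. The arrays of the groups did not overlap for 3 of the 40 (Tnnt1, Tpm3 and Myl3), or 7.5%, against 19.4% of all genes, so neither share stands above the background. The median was −1.66 without KO2 replicate 2, −1.34 without WT replicate 4, −0.42 without WT replicate 3, −0.56 without KO2 replicate 1, and −0.46 with array weights (27 genes lower). Within slides it was −1.73 on slide 4, with 37 genes lower, and 0.13 on slide 5, with 22 higher and 18 lower.

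Some markers of other cell types differed between the genotypes. Of all genes tested, 1.37% were called on the normal diet and 14.5% on low iodine, with 7.28% called lower there. On the normal diet all 7 thymic epithelium genes were lower in KO2, 5 of them past the test, and their mean level ran from −2.49 to 1.34 in WT and from −4.10 to −1.01 in KO2. On low iodine all 5 endothelium genes were lower in KO2 (3 called), with mean levels from 2.02 to 2.33 in WT and from 1.12 to 1.32 in KO2. All 5 cartilage genes were lower there too (4 called), from −1.58 to −0.56 in WT and from −3.27 to −2.78 in KO2, as were 9 of 9 smooth muscle genes (2 called) and 5 of 6 pericyte genes (2 called). Calls in other lists on the normal diet were in cartilage (1 lower), fibroblast (1 lower) and follicular genes (2 higher). On low iodine they were in airway (2 lower), fibroblast (2 lower, 1 higher) and follicular genes (1 lower, 1 higher). These lists hold few genes, and their part in the muscle differences was not tested.

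**Figure D5:**
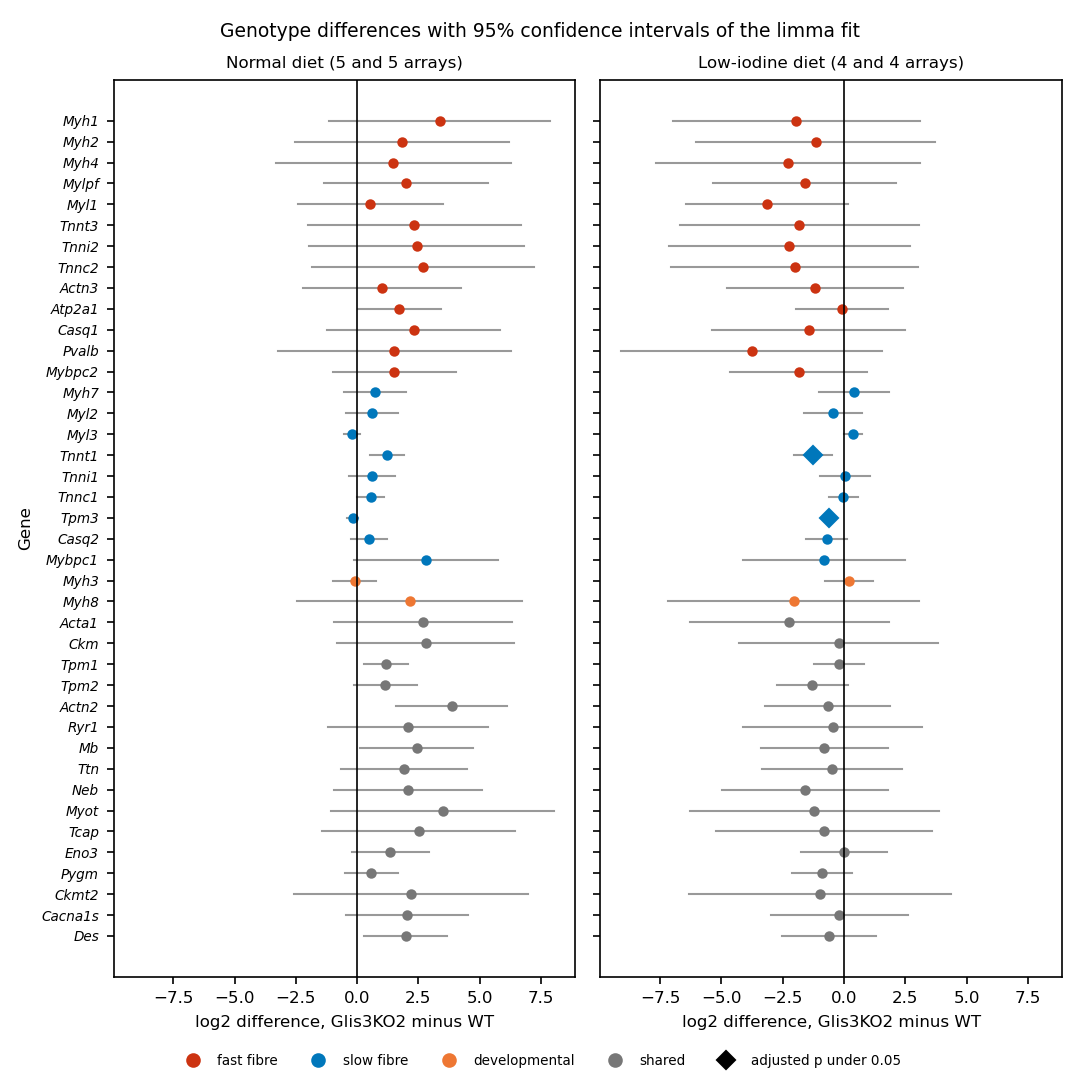
KO2 minus WT difference of each gene in log2 units (points, coloured by role) with the 95% confidence interval of the limma fit (lines), on the normal diet (left, 5 and 5 arrays) and on low iodine (right, 4 and 4 arrays); diamonds passed an adjusted p under 0.05. Most intervals cross 0, and the 2 diamonds are Tnnt1 and Tpm3 on low iodine.

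On low iodine Tnnt1 fell by 1.27 on the log2 scale in KO2 (−1.27 ± 0.37 SE, n = 4 and 4, limma adjusted p = 0.0281). The call was lost in 6 of 29 alternatives, with adjusted p from 0.00710 to 0.0939; these include the fits without WT replicate 2, without WT replicate 3, without KO2 replicate 1 and without KO2 replicate 4. KO2 was lower on both slides, by −1.91 on slide 4 and −0.64 on slide 5. On the normal diet KO2 was higher on each of slides 1 to 3, by 2.01, 0.60 and 1.41, with 1 array of each genotype on slide 1. The difference between the diets' genotype effects was −2.48 ± 0.49 (SE, limma interaction adjusted p = 0.0224), lost in 2 of 28 alternatives (0.00579 to 0.0620), 1 of them without low-iodine KO2 replicate 4.

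Tnnt1 was the only one of the 40 genes to pass the interaction test, which 1.16% of all genes passed and 0.837% in this direction. Of the 40 interaction differences 38 were negative, with a median of −3.00 against −0.05 over all genes. The median was −1.25 with array weights and ran from −4.09 to −2.18 with 1 array left out. The interaction compares differences taken within each array set, but it uses the same arrays as both genotype tests and is no further evidence on either.

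Tpm3 fell by 0.61 on the log2 scale in low-iodine KO2 (−0.61 ± 0.13 SE, limma adjusted p = 0.00356), which is 1.53-fold, with the same value on slides 4 and 5. It was lost with median scaling (adjusted p = 0.298) and with the mean over probes, and the other Tpm3 probe, A_51_P462153, differed by −0.41 (adjusted p = 0.351). Tpm3 did not follow the other muscle genes between arrays, and neither called gene is among those with r above 0.8.

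Most other muscle genes did not pass the test either. Of 65 tested, 59 were higher in normal-diet KO2, with a median of 1.14, and 3 passed (1.37% of all genes did): Myom3, an M-band protein (1.14 ± 0.20 SE, limma adjusted p = 0.00994), Unc45b, a myosin chaperone (0.79 ± 0.16 SE, adjusted p = 0.0187), and Trim63, a ubiquitin ligase of muscle (5.00 ± 1.15 SE, adjusted p = 0.0416). On low iodine 41 of 65 were lower and 24 higher, with a median of −0.30, and 2 passed, where 14.5% of all genes did: Fbp2, the muscle fructose bisphosphatase, lower (−1.80 ± 0.44 SE, adjusted p = 0.0115) and Fhl1 higher (0.77 ± 0.25 SE, adjusted p = 0.0457). Of 11 regulators none passed on either diet in limma's fit, and 1 had an unadjusted p under 0.05 on each. Of the 17924 genes tested, 2325 had such a p on the normal diet and 4978 on low iodine.

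Of 10 heart-type genes, 1 passed on the normal diet and 3 on low iodine, all 3 lower, where 7.28% of all genes were called lower. Tnni3, cardiac troponin I, was higher in normal-diet KO2 (2.14 ± 0.40 SE, limma adjusted p = 0.0115). Cardiac actin Actc1 was lower in low-iodine KO2 (−2.42 ± 0.24 SE, adjusted p = 1.03e-05), as were Mybpc3 (−1.93 ± 0.18 SE, adjusted p = 5.36e-06) and Tnnt2 (−2.00 ± 0.40 SE, adjusted p = 0.00300), the cardiac myosin-binding protein C and troponin T. The same 3 genes passed the interaction test in limma's fit, at −2.90, −1.63 and −2.65. Their list had a median r of 0.13 with the muscle mean. In smooth muscle, where 2 of 9 genes passed on low iodine, Smtn (−0.99 ± 0.19 SE, adjusted p = 0.00203) and Actg2 (−0.77 ± 0.19 SE, adjusted p = 0.0122) were lower.

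Between diets, 11 of the 40 genes passed in WT (10 higher and 1 lower on low iodine) and 17 in KO2 (5 higher and 12 lower), where 76% and 74.4% of all genes passed, so both shares lie below the background. The largest rises in WT were those of Myh3 by 5.09, Tnnc1 by 4.77, Atp2a1 by 3.75, Myl3 by 3.58 and Myl2 by 3.47. In KO2 the same 5 rose, by 5.40, 4.20, 1.95, 4.16 and 2.41. Ckm (−5.89), Actn3 (−5.67), Myl1 (−5.40) and Tnni2 (−5.40) were among those that fell. The rises are those of the brightest probes. For Myh3 this probe was well above background on 3 of 10 normal-diet and all 8 low-iodine arrays. It thus passed the filter of 4 arrays only with the low-iodine arrays. Myl2 was well above background on 4 of 10 normal-diet arrays. The rises of Myh3 and Myl2 therefore start from dim values, and their size is uncertain. By its other probe Myl3 had medians of −0.58 and −0.51 in WT and 1.30 and −2.34 in KO2, normal diet first. That of Atp2a1 had −2.04 and 0.31 in WT and 2.70 and −3.85 in KO2, so in KO2 the other probe fell in both genes. The diet contrasts compare array sets as well as diets, and without normal-diet KO2 replicate 3 the KO2 count became 28.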

How the data were processed

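Thyroid RNA of 18 samples was measured on single-colour Agilent arrays with Cy3 label; per the labels' protocols, 50 ng of total RNA was amplified with the NuGEN Ovation Pico WTA system. The submitters' processing notes name Feature Extraction version 12. The processed signal is a linear intensity from which the background was already subtracted, per the file headers. Intensities in the deposited summary table equalled those of the scanner files (ratio 1).

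From these intensities log2 values were computed from the deposited signal, minus each array's 75th percentile over non-control probes. Control and flagged spots were left out, with 82 probes flagged throughout on some array, and no spot was saturated. Of 41174 probes, 28215 mapped by accession to 1 gene of the RefSeq GRCm38.p6 table, 0 to several and 12959 to none. A probe was kept where 4 or more of 18 arrays read it well above background, and the brightest stood for each of 17924 genes. One limma model (lmFit, contrasts.fit, eBayes; limma 3.58.1, R 4.3.3) with 4 group means was fitted, with Benjamini-Hochberg adjustment over all genes and a threshold of 0.05; every adjusted p is limma's. It was tested on simulated data.

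The members and all gene lists were chosen with earlier results of these data known. Named genes followed a rule: values on every array for 21 members and any member called, all others by range or SD, and genes of other lists past the threshold in a genotype contrast. Actn2 and the choice of genes named for their probes were added after their values were seen. Alternatives were background correction by normexp (offset 50, on median signals), scaling, filters, probe averaging, slide or replicate number as a block, array weights, single diets and each array left out.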

Additional observations from a re-analysis of the deposited data

Results flagged for a closer look

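In 96 checks of a single array against the rest of its group, an array stood apart in 10, on 5 arrays in all, and chance alone gives about 1 in 20. In low-iodine KO2, replicate 2 stood above the other 3 arrays in the mean of the 40 genes (0.60), in the share of signal (0.295%), in Acta1 (2.85, next highest −1.48), in Myh1 (4.02, next −3.30) and in Myh2 (2.55, next −4.10). In normal-diet KO2, replicate 3 lay apart in Myh1 (−5.34, next lowest 3.39). In normal-diet WT, replicate 2 stood out in the share of signal (0.515%), and replicate 5 in Tnni1 (−6.16, next −4.11) and Tpm3 (4.67, next 4.50). In low-iodine WT, replicate 2 stood out in Tnni1 (−1.54, next −3.16), on the array with the highest median signal (191.5). The flags share arrays and genes that vary together, so they are not independent.

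The genotype effect on Tnnt1 differed between the diets, by −2.48 ± 0.49 (SE, limma interaction adjusted p = 0.0224). Tnnt1 was higher in KO2 on all 3 normal-diet slides, 1 of them with 1 array per genotype, and lower on both low-iodine slides. The slides hold the same arrays as the test and are no further evidence.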

How the results depend on the processing

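Of 404 recomputed summary values 385 moved by less than the spread between arrays or, for counts and SDs, by less than 1.5 times; the other 19 were 14 counts of calls and 5 median SDs. The median SD of the members with normexp was 0.997 in low-iodine WT and 0.732 in low-iodine KO2. With each array left out it ran from 1.10 to 2.37 in normal-diet WT, from 1.64 to 3.16 in normal-diet KO2, from 1.23 to 1.78 in low-iodine WT and from 0.445 to 1.51 in low-iodine KO2. Medians of differences moved within the spread between arrays, which is wide: the normal-diet one ran from 0.85 to 3.00, the interaction one from −4.09 to −1.25, and the WT diet one turned from 0.76 to −0.26 with median scaling and to −0.05 without low-iodine WT replicate 3. Of 1806 values of single genes 10 lost a call, 4 gained one and 0 called values reversed. On the normal diet the count of called members was 2 with normexp (Actn2 and Tnnt1), 1 with the replicate block, 1 with array weights, and 0 to 1 with each array left out (1, Tnnt1, without WT replicate 5). On low iodine it was 0 with median scaling, 1 with the mean over probes, 1 with array weights and 1 to 2 with each array left out. The interaction count was 0 on the unscaled deposited table and 0 to 1 with each array left out, and the diet count in KO2 was 12 to 28. Same-numbered WT and KO2 arrays had correlated deviations from −0.04 to 0.32 on the normal diet (2 of 5 pairs over 0.1, 1 of 5 best with its own number) and from 0.03 to 0.13 on low iodine (2 of 4, 3 of 4 best), so numbers were not taken as pairs; the replicate block moved the calls over all genes from 246 to 164 and from 2600 to 2690. All-gene counts on the normal diet were 3 with normal-diet arrays alone and 995 with array weights, and on low iodine 1600 with median scaling and 1641 alone. Median scaling moved the median of all genes on low iodine from −0.04 to 0.13, and no scaling to −0.29, with the members' median at −0.69 and −1.11. For the share of signal, normexp and the filters were not run. Dim probes limit Myh3, Myl2, Pvalb and Myot most, which were above background on few arrays of some groups. The causes of these shifts were not tested.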
